A study of Mus musculus with 6 samples.

Results

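The genes described here are 39 markers of the blood vessels of the mouse cerebral cortex, 32 of endothelial cells and 7 of mural cells. A gene counted as found where a probe of the array carried its listed name, which held for 37 of the 39 (30 endothelial and 7 mural) with 68 probes, among 17263 named genes with a testable probe. Esam and Ly6c1 stand on the array as Esam1 and Ly6c, so they lie outside the 37 and are given separately. All 37 genes had a lead probe, the brightest over the 6 arrays, that was well above background on all 6, and 54 of the 68 probes were testable.

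RNA of dissected cerebral cortex of male mice was hybridised, 1 sample per 1-colour Agilent array, 3 samples titled knock-out (53, 48 and 54) with the genotype label Cux2-/- and 3 titled wild type (15, 62 and 16). The genotype label of those 3 reads Cux2+/-, against their titles, and they are called controls. The mouse strain, the age and the way in which Cux2 was altered are left unstated by the labels, and so is whether the samples are separate animals. If they are not, the p-values cover a spread that may be technical. The RNA came from all cells of the tissue, so fewer vessel cells and less RNA per vessel cell cannot be told apart in any value below.

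Endothelial cells line every vessel. In the brain they are sealed to each other by tight junctions of claudin-5 and occludin and carry glucose transporters and drug efflux pumps, which together form the blood-brain barrier. Vessel growth and stability run through receptor tyrosine kinases for VEGF and the angiopoietins, and ETS-family factors such as Erg and Fli1 are known to maintain endothelial gene expression. Mural cells wrap the endothelium, as pericytes on capillaries and as smooth muscle cells on arterioles, and are recruited through PDGF receptor beta.

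No vessel gene passed the test for a difference between the genotypes. Of the 37 genes 0 passed a limma adjusted p of 0.05 (lowest 0.288, highest 0.993), where 0.133% of all 17263 genes did. At an unadjusted p under 0.05 in limma 1 was higher and 0 were lower, against 3.9% and 4.4% of all genes. The 3 knock-out arrays lay wholly above the 3 controls for 1 gene, Ocln, and wholly below for 2, Slco1a4 and Acta2, where 6.42% and 7.23% of all genes did. For 37 genes these counts are near or below the shares over all genes. Every value is log2 signal relative to the 75th percentile of the same array, and every difference is knock-out minus control on that scale.

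The intervals show how large a difference these arrays could still hold. The 95% interval of the difference lay inside 0.58 on the log2 scale to either side of 0, a 1.5-fold change, for 25 of the 37 genes. It lay inside a 2-fold change for 36, the exception being Vwf. Over the 37 genes 23 were nominally higher and 14 lower, with a median difference of 0.03 beside -0.01 over all genes tested. Their median residual SD among arrays of a group was 0.166, beside 0.132 over all genes.

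**Figure D1:**
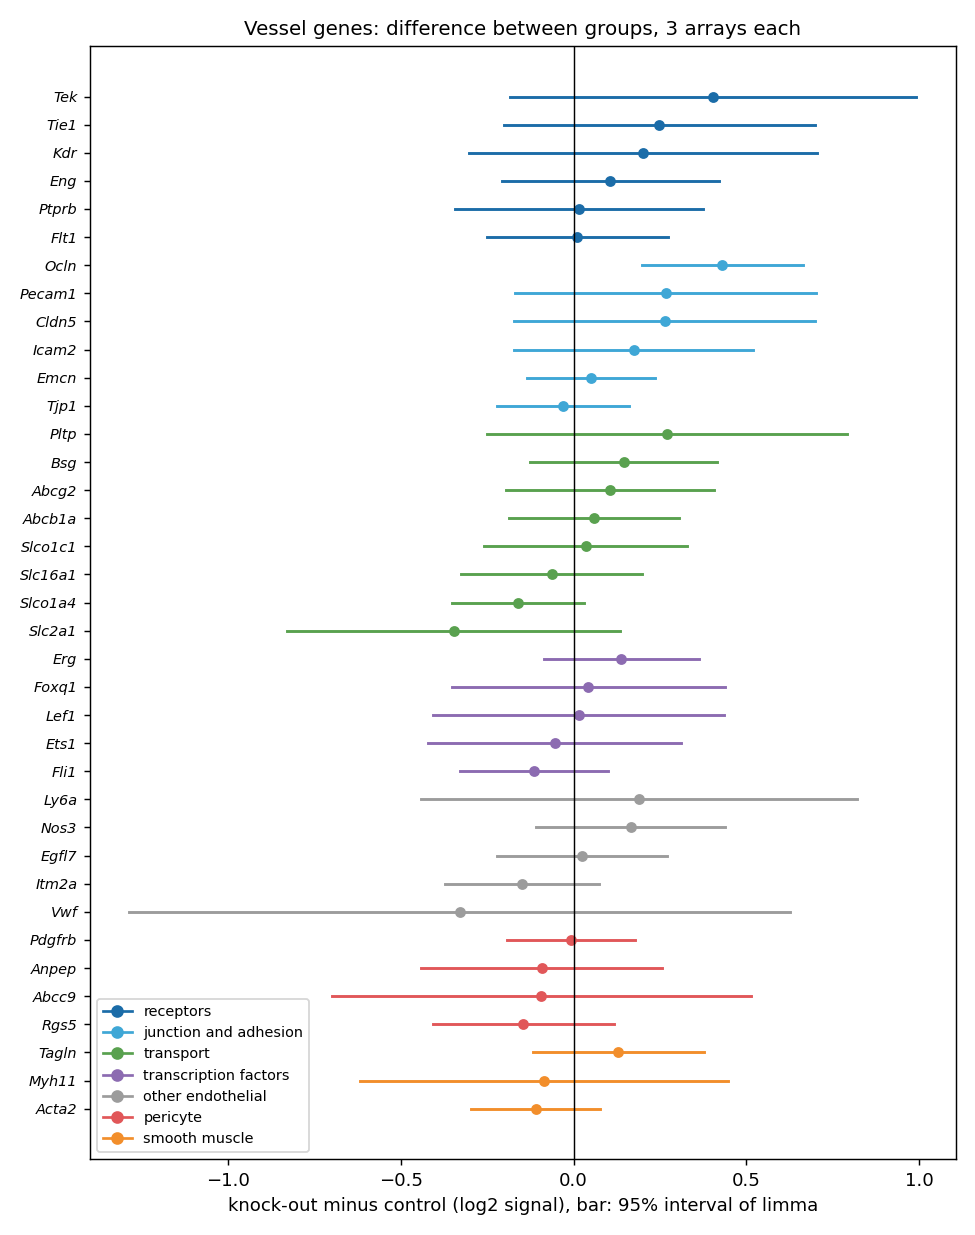
Difference between the groups, knock-out minus control, for 37 vessel genes (x axis, log2 signal, points) with the 95% interval of limma (bars), ordered by role and coloured by role, 3 arrays per group. All intervals but that of Ocln hold 0, and that of Vwf, from -1.28 to 0.63, is the widest.

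Of the endothelial receptors 6 of 6 stood nominally higher in the knock-outs over all arrays, with a median difference of 0.15, and 0 of the 6 passed (limma adjusted p from 0.772 to 0.991). This rested largely on control 15: without it 4 were higher and 2 lower, with a median of 0.06, and within slide 2, which does not hold it, 2 were higher and 4 lower, with a median of -0.04. Without knock-out 54 the count was also 4 and 2, and without control 16 the median was 0.25. Tek, the angiopoietin receptor Tie2, stood at -3.46, -2.70 and -2.48 on controls 15, 62 and 16 and at -2.36, -2.55 and -2.52 on knock-outs 53, 48 and 54. Control 15 lay far below the other 5 arrays, and control 16 lay above knock-outs 48 and 54. The difference was 0.40 (95% interval -0.18 to 0.99, limma adjusted p = 0.772), and it was 0.11 without control 15 and 0.60 without control 16. Tie1, an orphan relative of Tek, had the same low array: its control values were -3.37 in 15, -3.04 in 62 and -2.61 in 16, and its knock-out values -2.74, -2.84 and -2.69. Its difference was 0.25 (limma adjusted p = 0.830). Kdr, the main VEGF receptor of endothelium, stood at -1.96 on control 15 and between -1.42 and -1.15 on the other 5. Its difference was 0.20 over all arrays (95% interval -0.30 to 0.71, limma adjusted p = 0.886). Within slide 1, which holds control 15, that difference was 0.76, and within slide 2 it was -0.19.

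Flt1, a VEGF receptor that also acts as a decoy, did not share that pattern. It stood at 3.08, 2.98 and 2.78 on controls 15, 62 and 16 and at 2.87, 2.93 and 3.08 on knock-outs 53, 48 and 54, so the groups overlapped. Its difference was 0.01 (95% interval -0.25 to 0.27, limma adjusted p = 0.991), the smallest of the 6 receptors, and its other tested probes gave 0.03 and -0.11. Eng, a co-receptor of TGF-beta, differed by 0.11 and Ptprb, a phosphatase that restrains Tek, by 0.02.

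Among junction and adhesion genes 5 of 6 stood nominally higher and 0 passed, with a median difference of 0.22. That median was 0.11 without control 15, 0.11 without knock-out 53 and 0.13 without knock-out 54. It was 0.31 without knock-out 48, 0.33 within slide 1 and 0.15 within slide 2. In each of these settings 5 or 6 of the 6 were higher. Esam is also listed in this role, which holds 7 genes, but lies outside the 6 by its array name. It was lower, at -0.22, as given below. Ocln, which encodes the tight-junction protein occludin, had the lowest p of all 37 genes. It stood at -3.21, -3.21 and -3.29 on controls 15, 62 and 16 and at -2.80, -2.95 and -2.66 on knock-outs 53, 48 and 54. Every knock-out array was thus above every control. The difference was 0.43 (95% interval 0.20 to 0.66, limma unadjusted p = 0.0035), with an adjusted p of 0.288 over all tested probes. It was 0.40 within slide 1 and 0.45 within slide 2, and lay between 0.36 and 0.50 as single arrays were left out. The other Ocln probe was not well above background on any array, so 1 probe carries this value.

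The 250 bases before each listed start site were read for 25 of the 39 genes from RefSeq (build GRCm38.p6), to see whether the vessel genes share letters of known sites. ETS factors and Lef1 are among the 39 genes, while the CArG box was read as a site of smooth muscle genes. A gene counted as having a site where any of its start sites did, among the vessel genes and among all genes alike. The ETS core CCGGAA, on either strand, was present for 2 of 21 endothelial genes, Ocln and Kdr, and 0 of 4 mural genes, against 13.6% of all 27025 genes with such a stretch. The TCF/LEF core CTTTGA was present for Abcb1a, Egfl7, Lef1 and Rgs5, against 15.8% of all genes, and the CArG box of smooth muscle genes for 1, Lef1, against 1.62%. The stretches of Ocln and Kdr are shown because they are those with an ETS core, and Ocln is the gene with the lowest p. That of Ocln lies at chr13:100552719-100552968 and that of Kdr at chr5:75978456-75978705, both on the minus strand, printed 5′ to 3′ along the gene. Capitals mark the core, in Kdr as its reverse complement.
Ocln: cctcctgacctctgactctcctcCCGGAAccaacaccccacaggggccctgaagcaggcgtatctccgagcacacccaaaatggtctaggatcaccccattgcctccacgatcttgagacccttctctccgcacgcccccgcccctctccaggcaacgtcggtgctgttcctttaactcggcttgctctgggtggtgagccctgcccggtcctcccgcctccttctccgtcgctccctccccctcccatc
Kdr: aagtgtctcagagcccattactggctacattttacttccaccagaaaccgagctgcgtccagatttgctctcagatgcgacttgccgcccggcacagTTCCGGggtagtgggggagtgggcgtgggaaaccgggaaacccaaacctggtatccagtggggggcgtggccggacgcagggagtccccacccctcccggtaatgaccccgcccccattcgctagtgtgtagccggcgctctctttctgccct
A match of letters is a description of the window and not a bound site.

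Cldn5, the dominant claudin of brain endothelium, stood at 2.23, 2.69 and 2.37 on controls 15, 62 and 16 and at 2.63, 2.44 and 3.01 on knock-outs 53, 48 and 54. Knock-out 54 was the highest and control 15 the lowest, and the other 4 arrays were interleaved. The difference was 0.26 (95% interval -0.17 to 0.70, limma adjusted p = 0.807), and it was 0.11 without knock-out 54 and 0.16 without control 15. Pecam1, an adhesion molecule of endothelial cell borders, stood at -3.78, -3.75 and -3.27 on controls 15, 62 and 16 and at -3.06, -3.53 and -3.42 on knock-outs 53, 48 and 54. Control 16 lay above 2 of the 3 knock-outs, and the difference of 0.27 had a 95% interval from -0.17 to 0.70 (limma adjusted p = 0.803). It was 0.13 without knock-out 53, 0.18 without control 15 and 0.43 without control 16. Icam2, a ligand of leukocyte integrins, differed by 0.17, and the sialomucin Emcn by 0.05 with all 6 arrays inside 0.16. Tjp1, the junction scaffold ZO-1 that many cell types express, differed by -0.03.

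**Figure D2:**
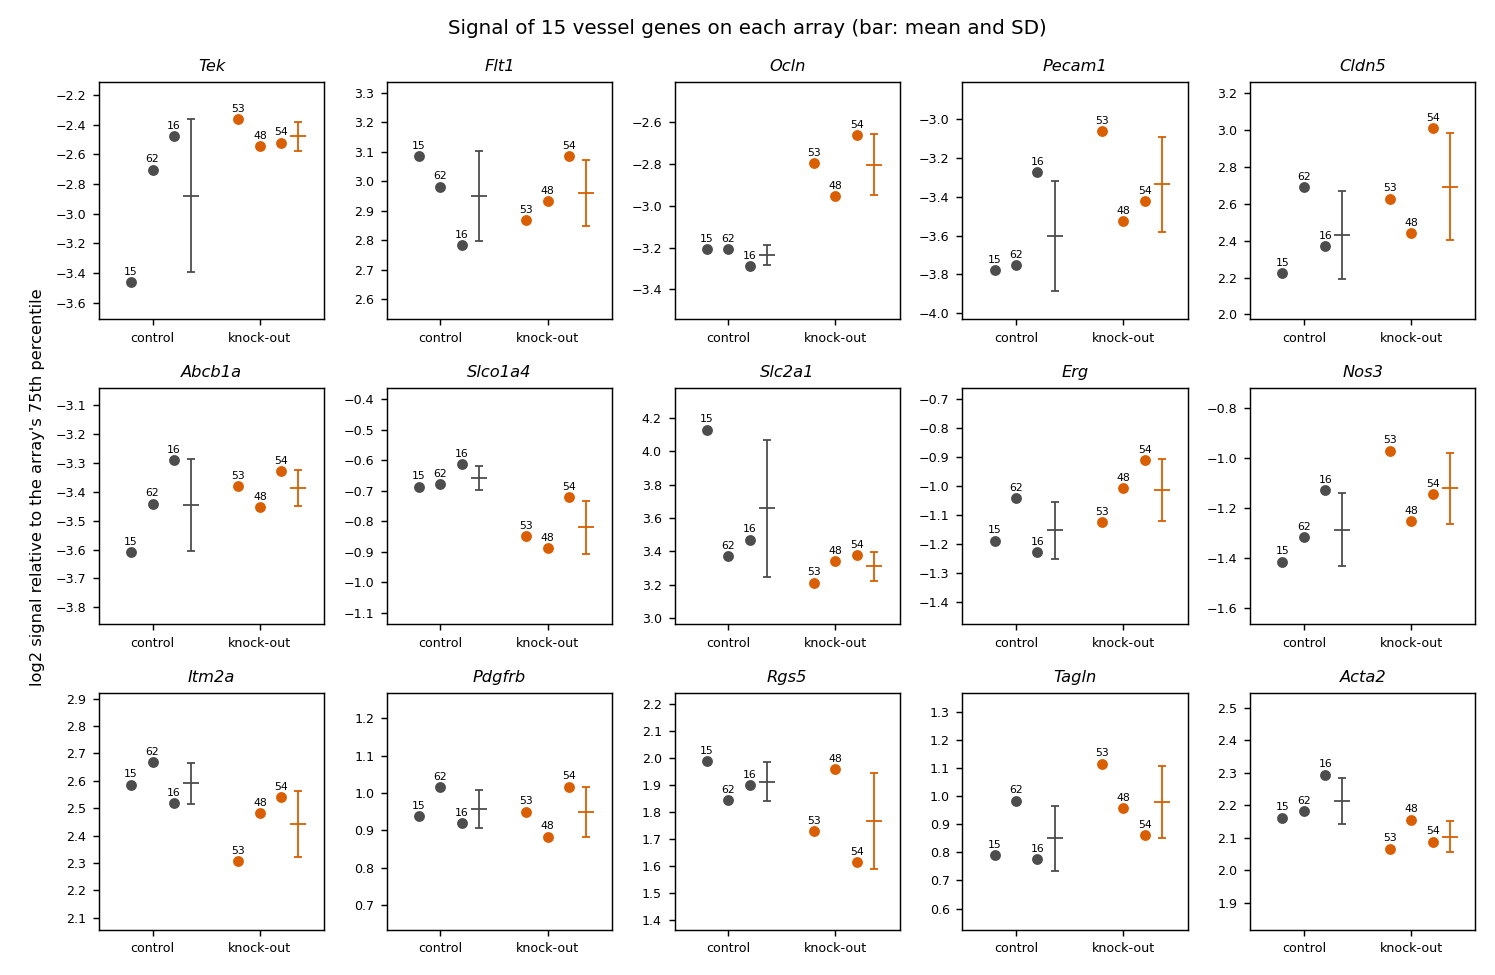
Signal of 15 vessel genes (y axis, log2 relative to the 75th percentile of the array, own scale per gene) on the 3 control arrays (grey) and 3 knock-out arrays (orange), numbered by sample, with mean and SD (bars). The groups do not overlap for Ocln, Slco1a4 and Acta2, and control 15 stands alone for Tek (-3.46) and Slc2a1 (4.13).

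Transport genes of the barrier went both ways, 5 nominally higher and 3 lower of 8, with a median of 0.05 and 0 past the threshold (limma adjusted p from 0.704 to 0.974). Without control 15 they were 3 higher and 5 lower, with a median of -0.03. Slco1a4, an organic anion carrier of the blood-brain barrier, stood at -0.69, -0.68 and -0.61 on controls 15, 62 and 16 and at -0.85, -0.89 and -0.72 on knock-outs 53, 48 and 54. All 3 knock-outs were lower than all 3 controls, with knock-out 54 the closest to the controls. The difference was -0.16 (95% interval -0.35 to 0.03, limma adjusted p = 0.704), and it was 0.01 without scaling between arrays, a setting under which the median of all genes moved to 0.17.

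Slc2a1, the glucose transporter GLUT1 of endothelium and also of astrocytes and choroid plexus, stood at 4.13, 3.37 and 3.47 on controls 15, 62 and 16 and at 3.21, 3.34 and 3.38 on knock-outs 53, 48 and 54. Control 15 stood alone at the top, and of the other 5 arrays control 16 was the highest. The difference of -0.35 (95% interval -0.83 to 0.13, limma adjusted p = 0.749) was -0.11 without control 15. Astrocyte markers had their highest median deviation on that array too, at 0.14, and choroid plexus markers their lowest. The 30 endothelial genes had a median deviation of -0.15 there, and the 27 other endothelial genes given below 0.06. Mfsd2a, 1 of those 27, was also highest there, at 3.3 against 2.2 to 2.5 elsewhere. What part any of these cell types had in the Slc2a1 value was not tested. Slc16a1, the lactate transporter MCT1, differed by -0.06, and Bsg, the basigin that carries it to the membrane, by 0.14. Abcb1a, the P-glycoprotein efflux pump, stood at -3.61, -3.44 and -3.29 on controls 15, 62 and 16 and at -3.38, -3.45 and -3.33 on knock-outs 53, 48 and 54. Its knock-out values lay inside the range of the controls, with a difference of 0.06 (95% interval -0.19 to 0.31, limma adjusted p = 0.938). The efflux pump Abcg2 differed by 0.10, the thyroid hormone carrier Slco1c1 by 0.03 and the phospholipid transfer protein Pltp by 0.27, the last with control 15 at -1.56 against -0.89 to -0.68 elsewhere.

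Transcription factors of endothelium were 3 nominally higher and 2 lower of 5, with a median of 0.01, and 0 passed. That median moved between slides: within slide 1 it was 0.23, with 4 higher and 1 lower. Within slide 2 it was -0.06, with 1 higher and 4 lower. It was -0.11 without control 15 and 0.15 without control 62. Erg, an ETS factor of endothelium, stood at -1.19, -1.04 and -1.23 on controls 15, 62 and 16 and at -1.12, -1.01 and -0.91 on knock-outs 53, 48 and 54. Control 62 lay above knock-out 53, and the difference was 0.14 (95% interval -0.09 to 0.36, limma adjusted p = 0.801), or 0.09 without knock-out 54. Fli1 and Ets1, ETS factors that blood and immune cells also express, differed by -0.11 and -0.05, and both tested Fli1 probes were negative over all arrays. Those 2 probes gave 0.04 and 0.21 within slide 1 and -0.24 each within slide 2. Markers of microglia, brain macrophages among which Fli1 is also known, were nominally lower in the knock-outs in 17 of 17 genes (median -0.39). Of these markers 0 passed the adjusted threshold, and 14 were lower at an unadjusted p under 0.05 in limma, against 4.4% of all genes. Their summed signal was 78.2 to 98.9 on controls and 62.8 to 66.2 on knock-outs (in units of the 75th percentile). Their part in the Fli1 and Ets1 values was not tested. Lef1, an effector of Wnt signalling, differed by 0.01 and Foxq1, a forkhead factor enriched in brain endothelium, by 0.04.

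Of the remaining endothelial genes 3 were nominally higher and 2 lower of 5, with a median of 0.02, and 0 passed. Within slide 1 and within slide 2 they were 2 higher and 3 lower, with medians of -0.08 and -0.11. Without control 16 they were 4 higher and 1 lower, with a median of 0.07. Itm2a, a membrane protein abundant in brain endothelium, stood at 2.59, 2.67 and 2.52 on controls 15, 62 and 16 and at 2.31, 2.48 and 2.54 on knock-outs 53, 48 and 54. Knock-out 54 lay above control 16, and the difference was -0.15 (95% interval -0.37 to 0.07, limma adjusted p = 0.779), or -0.08 without knock-out 53. Nos3, the endothelial nitric oxide synthase, stood at -1.41, -1.32 and -1.13 on controls 15, 62 and 16 and at -0.97, -1.25 and -1.14 on knock-outs 53, 48 and 54. Its groups overlapped, with a difference of 0.16 (95% interval -0.11 to 0.44, limma adjusted p = 0.806), which was 0.09 without knock-out 53 and 0.10 without control 15. Egfl7, a secreted protein of endothelium and the host gene of miR-126, differed by 0.02.

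Vwf, the von Willebrand factor stored in endothelial granules, was the most variable vessel gene, spanning 1.63 over the 6 arrays, with a residual SD above that of 97.6% of all genes. It stood at 1.22, -0.05 and 1.59 on controls 15, 62 and 16 and at 0.40, 0.65 and 0.72 on knock-outs 53, 48 and 54, so the controls enclosed the knock-outs. A second Vwf probe gave the same order of controls, -0.90, -1.98 and -0.39. Ly6a, a surface antigen of endothelium also carried by blood cells, was lowest on the same array, at -0.24, -1.23 and -0.38 on controls 15, 62 and 16 and between -0.57 and -0.21 on the knock-outs. Its difference was 0.19 (limma adjusted p = 0.923). Red blood cell transcripts were lowest on control 62 too, at a median deviation of -0.83 over the 5 tested genes of a list of 10. They were highest on knock-outs 48 and 54, at 0.39 and 0.84, where Vwf lay inside the range of the controls. All 5 were nominally higher in the knock-outs (median difference 0.49, 0 passed and 0 at an unadjusted p under 0.05 in limma). Their summed signal ran from 81.9 to 142 on controls and from 121 to 228 on knock-outs, so the groups overlapped, and their part in the Vwf and Ly6a values was not tested.

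Mural genes stood nominally lower in 6 of 7, with a median difference of -0.09, and 0 passed (limma adjusted p from 0.817 to 0.992). All 4 pericyte genes were on the lower side over all arrays. Within slide 1, and without control 15, 62 or 16 or knock-out 53 or 48, 3 were lower and 1 higher. Their median of -0.09 was -0.01 without knock-out 53 and -0.21 without knock-out 48. Pdgfrb, which encodes the receptor that pericytes need, was among the steadiest genes: it stood at 0.94, 1.02 and 0.92 on controls 15, 62 and 16 and at 0.95, 0.88 and 1.02 on knock-outs 53, 48 and 54. The groups overlapped, and the difference of -0.01 had a 95% interval from -0.19 to 0.18 (limma adjusted p = 0.992). Rgs5, a regulator of G-protein signalling and pericyte marker, stood at 1.99, 1.84 and 1.90 on controls 15, 62 and 16 and at 1.73, 1.96 and 1.61 on knock-outs 53, 48 and 54. Knock-out 48 lay above controls 62 and 16, and the difference was -0.15 (95% interval -0.41 to 0.12, limma adjusted p = 0.830), which was -0.07 without knock-out 54 and -0.24 without knock-out 48. Anpep, the aminopeptidase CD13, and Abcc9, a subunit of potassium channels, each differed by -0.09.

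Smooth muscle genes gave 1 nominally higher and 2 lower of 3, with a median of -0.09. Within slide 1, without control 16 and without knock-out 48, 2 were higher and 1 lower, with medians of 0.12, 0.09 and 0.07. Acta2, the smooth muscle alpha-actin, stood at 2.16, 2.18 and 2.29 on controls 15, 62 and 16 and at 2.07, 2.16 and 2.09 on knock-outs 53, 48 and 54. The knock-outs were all lower, with knock-out 48 just under control 15. The difference was -0.11 (95% interval -0.30 to 0.08, limma adjusted p = 0.817), or -0.07 without control 16, and its other tested probes gave -0.07 and 0.02. Tagln, the actin-binding protein SM22, stood at 0.79, 0.98 and 0.77 on controls 15, 62 and 16 and at 1.11, 0.96 and 0.86 on knock-outs 53, 48 and 54. Control 62 lay above 2 knock-outs, with a difference of 0.13 (95% interval -0.12 to 0.38, limma adjusted p = 0.837) in the opposite direction to Acta2. It was 0.06 without knock-out 53 and 0.20 without control 62. Myh11, the smooth muscle myosin heavy chain, differed by -0.09 with arrays spread over 0.81.

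Over all arrays the median difference was 0.06 for endothelial and -0.09 for mural genes. Both were on the same side of 0 without scaling (0.23 and 0.08), with normexp background correction (0.08 and 0.04) and within slide 2. On single arrays the groups overlapped for both classes. The median deviation from each gene's mean over the 30 endothelial genes was -0.15, 0.03 and 0.01 on controls 15, 62 and 16 and -0.04, -0.03 and 0.11 on knock-outs 53, 48 and 54. Over the 7 mural genes it was 0.00, 0.01 and 0.06 on the same controls and -0.09, 0.04 and -0.05 on the knock-outs. The endothelial median minus the mural one was -0.15, 0.02 and -0.05 on controls and 0.05, -0.07 and 0.16 on knock-outs, so the groups overlapped and knock-out 48 lay below 2 controls. Within slide 1, which holds control 15 with knock-outs 48 and 54, the median difference was 0.22 for endothelial and -0.04 for mural genes. Within slide 2, which holds controls 62 and 16 with knock-out 53, it was -0.01 and -0.16.

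Control 15 was the lowest of the 6 arrays for 13 of 30 endothelial genes and 0 of 7 mural genes, so for 35.1% of the 37, against 16.8% of all genes. Knock-out 54 was the highest for 12 of the 37 (32.4%), 11 of them endothelial, against 18.0% of all genes. Without control 15 the median endothelial difference was 0.01, with 18 of the 37 genes higher and 19 lower. Without knock-out 54 it was 0.02, with 19 higher and 18 lower, and within slide 2 there were 15 higher and 22 lower. Markers of the choroid plexus, an epithelium next to the ventricles, were also lowest on control 15, at a median deviation of -0.90 over 11 tested genes of 13, of which 8 were nominally higher and 3 lower in the knock-outs (median difference 0.10, 0 passed). They were low on knock-out 48 as well, at -0.64, where endothelial genes were near their mean (-0.03), and high on control 62, at 0.72. Their part in the endothelial values was not tested.

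**Figure D3:**
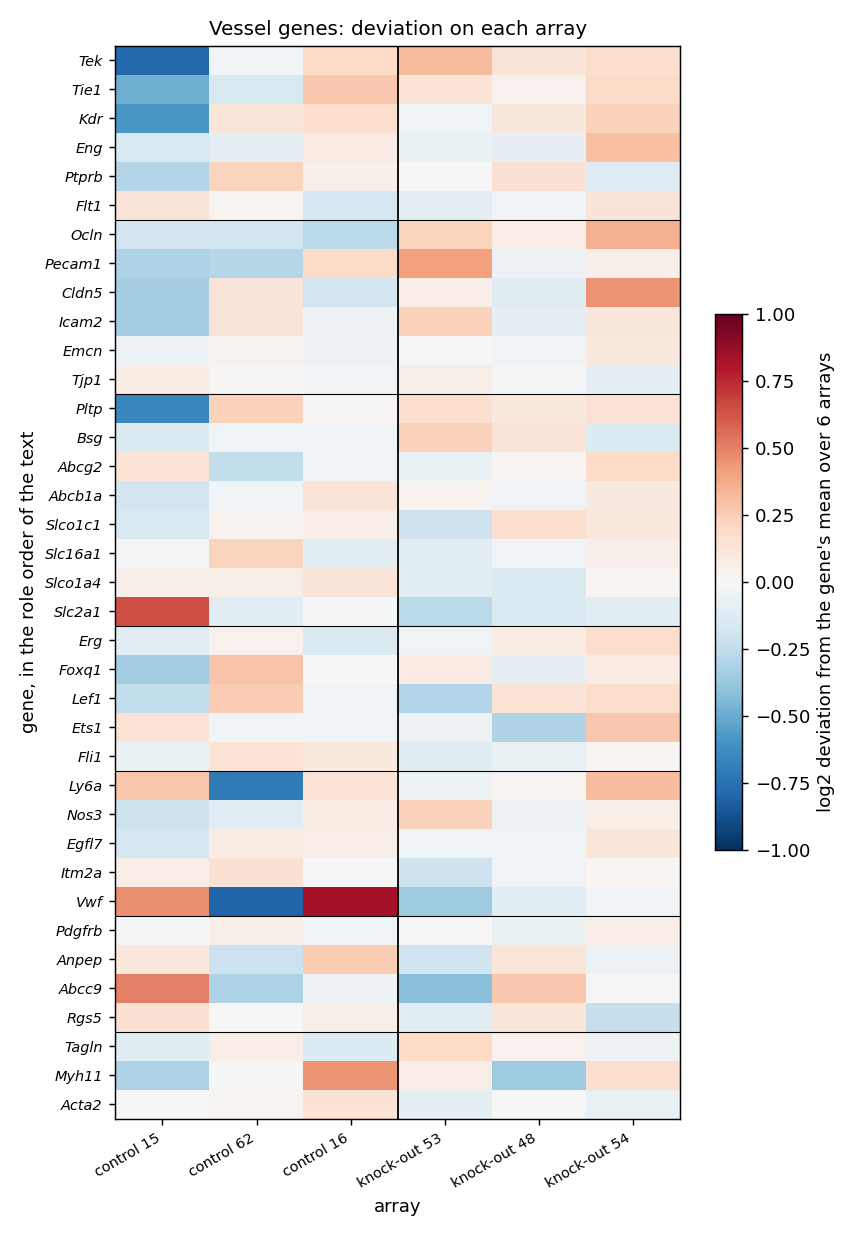
Log2 deviation of each of the 37 vessel genes from its own mean over the 6 arrays (colour), with genes in the role order of the text and controls left of the line. The column of control 15 is low for Tek, Tie1, Kdr and Pltp and high for Slc2a1, and control 62 is low for Vwf and Ly6a.

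**Figure D4:**
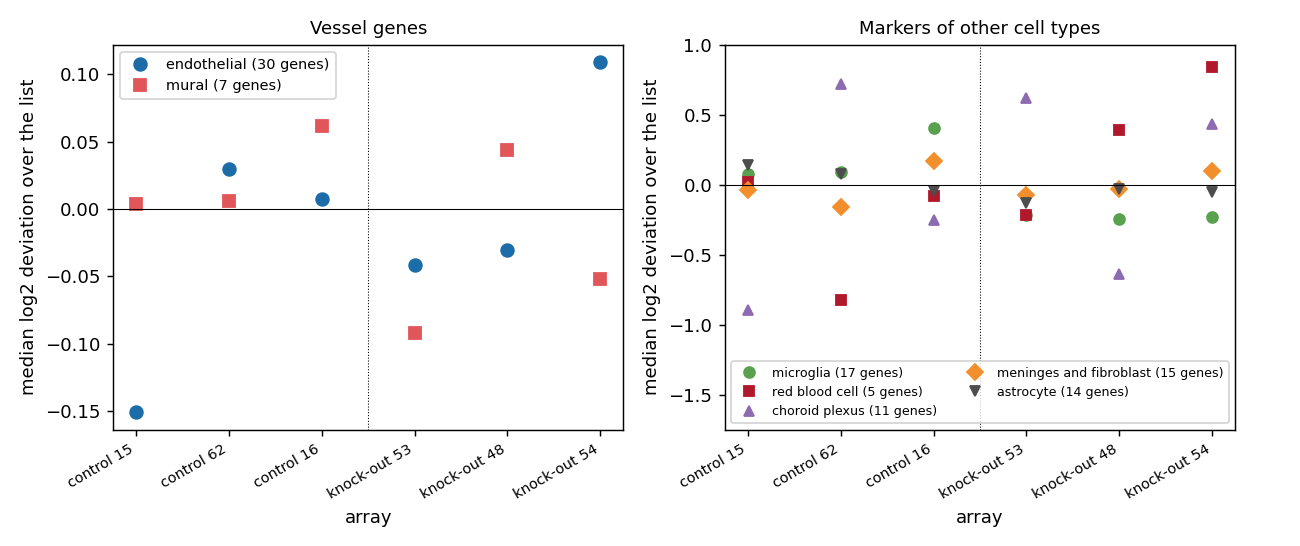
Median log2 deviation on each array of the endothelial and mural genes (left) and of marker lists of other cell types (right, on a wider axis). Endothelial genes lie between -0.15 on control 15 and 0.11 on knock-out 54, and microglial markers alone have all 3 knock-outs below all 3 controls by this median among the lists drawn.

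The genes that the array names otherwise gave 1 further gene on each side. Esam, a junction adhesion molecule of endothelium and platelets, stood at -0.61, -0.62 and -0.56 on controls 15, 62 and 16 and at -0.80, -0.88 and -0.76 on knock-outs 53, 48 and 54. All its knock-outs lay below all controls, as for 7.23% of all genes. The difference was -0.22 (95% interval -0.39 to -0.04, limma unadjusted p = 0.024, adjusted p = 0.538). Ly6c1, a surface antigen of brain endothelium and of monocytes with near-identical paralogs, stood at 3.23, 2.38 and 2.88 on controls 15, 62 and 16 and between 2.92 and 3.22 on the knock-outs. Control 62 was again the lowest, as for Ly6a and Vwf, and the difference was 0.20 (limma adjusted p = 0.891). With both genes 24 of 39 were nominally higher and 0 passed.

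Repeat probes were a further measure of the precision. Of 12 vessel genes with several tested probes, 6 had all probes on one side of 0 (Abcc9, Abcg2, Fli1, Lef1, Rgs5 and Vwf) and 6 did not (Acta2, Ets1, Flt1, Slc16a1, Tagln and Tjp1). Beside Acta2 and Flt1, given above, the probes of Ets1 differed between groups by -0.05, -0.13 and 0.18 and those of Slc16a1 by -0.06, -0.07 and 0.19. Those of Tagln gave 0.13 and -0.0007 and those of Tjp1 gave -0.03 and 0.15. The sign of the difference of these 6 genes thus depended on the probe, though the second Tagln value was almost 0. The positive probes of Slc16a1, Ets1 and Tjp1 were dim, with control means of -3.86, -4.46 and -4.77. Their lead probes had control means of 1.91, -1.60 and -0.42.

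Other genes of the vessel wall, from lists that hold none of the 39, were examined in the same fit. Of 27 tested endothelial genes of a list of 30, 15 were nominally higher and 12 lower (median 0.02), and 0 passed. At an unadjusted p under 0.05 in limma 2 were higher and 2 lower, against 3.9% and 4.4% of all genes. These 4 were Calcrl, the receptor of adrenomedullin and CGRP, at -0.41, Cdh5, the endothelial cadherin, at 0.29, Cav1, the coat protein of caveolae, at 0.33, and Klf4, a flow-regulated factor, at -0.28 (limma adjusted p from 0.323 to 0.617). Cdh5 stood at -2.26, -2.27 and -2.13 on controls 15, 62 and 16 and at -1.97, -1.98 and -1.84 on knock-outs 53, 48 and 54, so its groups did not overlap. Of the 27 genes this held for 3 higher, Cdh5 among them, and for 4 lower, Calcrl among them. Over all genes the shares were 6.42% and 7.23%. Of 17 tested mural genes 5 were higher and 12 lower (median -0.04), with 0 past either threshold in limma. The 4 of lowest p were Kcnj8, a pericyte potassium channel, at -0.22, Myl9, a myosin light chain, at -0.21, Notch3, the Notch receptor of mural cells, at -0.30, and Heyl, a Notch target, at 0.27.

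Ligands and co-receptors of vessel signalling gave 8 nominally higher and 11 lower of 19 tested, and 0 passed. Of the 19, 2 were lower at an unadjusted p under 0.05 in limma, against 4.4% of all genes. Pdgfb, the ligand of Pdgfrb, stood at -1.81, -1.46 and -1.58 on controls 15, 62 and 16 and at -2.16, -1.87 and -2.12 on knock-outs 53, 48 and 54. All knock-outs were lower than all controls, which held for 2 of the 19 genes, against 7.23% of all genes. The difference of Pdgfb was -0.43 (limma adjusted p = 0.467), while that of its receptor was -0.01. Vegfb, a ligand of Flt1, differed by -0.29, Tgfbr2, a TGF-beta receptor, by -0.21 and Edn1, the vasoconstrictor endothelin, by 0.26. Of 15 tested genes of Wnt signalling at the barrier, 6 were higher and 9 lower and 0 passed, with 1 lower at an unadjusted p under 0.05 in limma, against the same 4.4%. That gene was Fzd4, a Norrin and Wnt receptor of endothelium, at -0.25 (limma adjusted p = 0.521), beside Axin2, a feedback target of the pathway, at 0.19, Sox17, an endothelial factor that also stands in the list of 30, at 0.30 and Tspan12, a Fzd4 partner, at -0.16.

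Across the series 58.5% (knock-out 48) to 72.7% (control 16) of probes were well above background. Between 4 (control 62) and 35 (knock-out 48) spot values per array carried an outlier flag, and 0 spots were saturated. All 12 neuronal markers were tested, 6 nominally higher and 6 lower (median -0.0036, 0 passed). The brighter Cux2 probe, named Cutl2 on the array, differed by -0.12 (95% interval -0.36 to 0.12, limma adjusted p = 0.838). Its place relative to the altered stretch of the gene is unstated, so it does not check the labels. Astrocyte markers were nominally lower in 12 of 14 (median -0.11, 0 passed). Of them 2 were lower at an unadjusted p under 0.05 in limma, against 4.4% of all genes. Markers of meninges and fibroblasts were nominally lower in 8 of 15 (median -0.07) and oligodendrocyte markers in 8 of 13 (median -0.02).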

How the data were processed

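The deposited scanner files come from Agilent Feature Extraction 9.1.3.1, per the file headers. Their processed signal, the intensity used here, had its background subtracted with spatial and multiplicative detrending inside each array, per the file headers. A second deposited table holds log2 values with a median of 6.75 in every array. Their rank order followed the processed signal (Spearman correlation of at least 0.99997 per array), and how they were normalized is unstated. Control spots (1639 of 45018) and 120 spot values with an outlier flag were left out, spots of a probe were averaged (41174 probes), and log2 signal was set relative to the 75th percentile of each array. Probes not well above background throughout either group (all 3 arrays) were set aside, leaving 25505. The filter uses the groups, but all 37 lead probes passed on all 6 arrays. All tested probes entered 1 limma fit (version 3.58.1, R 4.3.3, lmFit then eBayes), with Benjamini-Hochberg adjustment, two-sided. The brightest probe over the 6 arrays stood for a gene. For genes of the other lists it was the tested probe brightest on the control arrays, a choice that uses the groups. The level of a probe is not comparable between genes. Genes of other lists were matched by array name or through a RefSeq gene table. The procedure was tested on simulated data. Slide numbers come from the file headers.

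Members and lists were chosen with earlier results of these data known. Values on each array are given for the 8 vessel genes of lowest p, the 3 endothelial and 3 mural genes of largest difference and 8 defining markers (Cldn5, Pecam1, Flt1, Slc2a1, Abcb1a, Pdgfrb, Rgs5 and Acta2), 15 in all, and of other vessel lists up to 4 genes of lowest p are named. Esam, Ly6c1, Tie1, Kdr, Vwf, Ly6a, Pltp, Cdh5, Pdgfb and Mfsd2a were given array values after these were seen. For the red blood cell list, 1 gene is not reported here and was left out of its values.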

Additional observations from a re-analysis of the deposited data

How the results depend on the processing

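Over 23 alternative settings 0 vessel genes passed wherever a test was run (21 settings, lowest limma adjusted p from 0.259 to 0.988), and the endothelial median stayed above the mural one (0.04 to 0.26). The number at an unadjusted p under 0.05 in limma was 1 higher and 0 lower in most of these, with exceptions of 0 with normexp, 1 lower beside it without control 62 and with members found by accession, 2 higher without knock-out 54, 6 higher without scaling, 4 higher without control 16, and 3 higher and 1 lower with slide as a block. The shares of 3.9% and 4.4% of all genes belong to the main fit. Those under each other setting were not counted, so these exceptions have no share to be read against. Without scaling, which moved the median of all genes to 0.17, 35 of 37 were higher, the endothelial median was 0.23 and the mural 0.082, and Acta2 stood at 0.065, Itm2a at 0.025, Pdgfrb at 0.17, Rgs5 at 0.030 and Slco1a4 at 0.014. With median scaling 18 were higher and 19 lower, and Flt1 stood at -0.026. The mural median was 0.038 with normexp, -0.033 with array weights, -0.16 within slide 2 and between -0.14 and -0.018 as single arrays were left out. Within slide 1 the endothelial median was 0.22 and exceeded the mural one by 0.26. Pdgfrb turned to 0.011 with the percentile over detected probes and with quantile normalization, to 0.013 within slide 1, and to 0.0089 with the authors' deposited log2 values. Flt1 stood at -0.065 with normexp, -0.022 with the mean of probes, -0.046 with slide as a block, and -0.076 and -0.015 within slides 1 and 2, and Abcb1a at -0.014 within slide 2. As single arrays were left out Flt1 ran from -0.072 to 0.079, Pdgfrb from -0.040 to 0.026 and Abcb1a from -0.021 to 0.14. Among all genes 23 passed, against 36 with median scaling, 0 with normexp, 2 without a filter, 11 with slide as a block and 2 to 46 as single arrays were left out (2 without control 16, 7 without control 15, 9 without knock-out 54, 46 without knock-out 53). The cause of these changes was not tested. No paired analysis was possible because the groups share no sample number. With 3 arrays per group, their number limits the precision.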

Other observations

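A Kdr probe that was not testable is printed in 10 spots of each array, and on knock-out 48 the brightest 2 of them had processed signals of 10265 and 4289, where the third stood at 18.1. On the other 5 arrays no spot of this probe exceeded 12.1. Of the bright spots 1 carried an outlier flag and 1 did not, so the mean over the kept spots put the probe at 0.14 on knock-out 48 against -8.78 to -7.14 on the other arrays. Its value there rests on 1 spot of the array.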
